A study of Homo sapiens with 9 samples.

Results

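Fibroblast growth factor (FGF) receptors and ligands were compared between 3 subclones of the human melanoma line SK-MEL-5, an established line that carries mutated BRAF. The genes were chosen by name: the receptor tyrosine kinases FGFR1, FGFR2, FGFR3 and FGFR4, the kinase-less receptor FGFRL1, and the ligands FGF1, FGF2 and FGF5. All 8 were found among the 60675 gene rows of the count table. The subclones, SC01, SC07 and SC10, were each grown from a single parental cell by limiting dilution without drug and were chosen for their first response to PLX-4720, a BRAF inhibitor. The labels do not say which response each subclone had. All libraries came from untreated cells, so the comparison asks how the receptors and ligands differ between subclones before drug. Each subclone is 1 clone with 3 libraries, and nothing in the labels says whether these came from separate cultures. The p-values therefore measure the spread between libraries, which may be technical, and a difference between subclones is a difference between single clones.

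FGFs are signalling proteins that bring receptors together as pairs on the cell surface, with heparan sulfate chains as part of the complex. Paired receptors phosphorylate each other and the adaptor FRS2, which leads through GRB2 and SOS to RAS and the ERK kinases, the same kinases that mutated BRAF drives. Genes switched on by ERK, such as the Sprouty family, DUSP6 and the ETS factors ETV4 and ETV5, feed back on the pathway or carry its output to the nucleus. FGF2 is known as a growth factor for pigment cells in culture and is made by many melanomas, whereas normal melanocytes depend on FGF2 from their surroundings. FGF receptor signalling has been studied as a bypass of BRAF inhibition in melanoma.

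Libraries held 30224066 to 39454087 counted reads, at which 3 counts equal 0.0760 to 0.0993 CPM (counts scaled to a common library size). Chi-square values per degree of freedom were 2.56 to 11.6 for libraries of the same subclone and 62.0 to 195 for libraries of different subclones. SC10 replicate 3 stood apart from the other two SC10 libraries, and without it FGFR4 was also called in SC10 against SC07 while FGFR3 was no longer called among the 3 subclones together. The melanocytic markers summed to 10900 to 11500 CPM in SC01, 24500 to 25000 CPM in SC07 and 15300 to 15500 CPM in SC10. PMEL (3750, 12100 and 6830 CPM in SC01, SC07 and SC10) and DCT (3480, 8830 and 4820 CPM) made up most of that sum. TYRP1 went the other way, at 2390, 1210 and 702 CPM, and S100B was lowest in SC07, at 150, 105 and 133 CPM. SOX10, 1 of the 8 melanocytic markers, was listed at 0 in all 9 libraries. The 6 immune markers summed to at most 3.79 CPM, in SC07. Most of that was PTPRC, at 0.173, 3.12 and 0.735 CPM in SC01, SC07 and SC10. The 8 fibroblast markers summed to 132 to 137, 428 to 490 and 336 to 371 CPM in SC01, SC07 and SC10, and 5 of them were under 1 CPM in all 9 libraries. LUM alone, at 131, 462 and 350 CPM, made up nearly all of that sum, and COL1A1 went the other way, at 2.04, 1.20 and 1.15 CPM. Keratinocyte markers summed to 22.8 to 28.1 CPM over the 9 libraries, most of it KRT10, at 22.6, 20.9 and 24.8 CPM in SC01, SC07 and SC10. KRT14 (0.22, 1.23 and 0.0197 CPM) and KRT15 (0.825, 1.93 and 0.105 CPM) were highest in SC07 and lowest in SC10. CDH1 was lowest in SC01, at 0.108, 1.08 and 0.75 CPM. Endothelial markers summed to 23.5 to 24.6 CPM in SC01, 14.5 to 15.9 CPM in SC07 and 8.72 to 9.24 CPM in SC10, without overlap. That fall came from KDR, at 20.8, 5.41 and 3.56 CPM in SC01, SC07 and SC10. VWF was higher in SC07 and SC10 than in SC01, at 2.82, 9.37 and 4.91 CPM. Mitochondrially encoded genes took 6.89% to 7.02% of counts in SC01, 9.52% to 9.99% in SC07 and 10.5% to 11.0% in SC10. The part of these differences in the results that follow was not tested. In RNA from many cells, fewer cells with a transcript and less of it per cell cannot be told apart.

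FGFR1 and FGFRL1 were lower in SC07 than in both other subclones, FGFR2 was higher there than in both, and FGFR4 and FGF2 were higher in SC07 and SC10 than in SC01. FGFR3, FGF1 and FGF5 were under 1 CPM in every library. A test of the 3 subclones together passed for 6 of the 7 genes that cleared the filter on low counts, while 76.3% of all 18009 genes tested passed it. FGF1 did not pass (adjusted p = 0.343, edgeR quasi-likelihood test), and FGFR3 passed with the least margin (adjusted p = 0.0162). FGF5 fell under the filter. SC07 against SC01 gave 3 higher and 2 lower members of 7, beside 62.0% of all genes called (31.5% higher and 30.5% lower). SC10 against SC01 gave 3 higher and 0 lower members, beside 65.9% of all genes (33.5% higher and 32.4% lower). The 4 others lay between -0.15 and -0.04 on the log2 scale in that pair. SC10 against SC07 gave 2 higher and 1 lower member, beside 47.9% of all genes (24.8% higher and 23.0% lower). Beside these shares, the counts do not set the FGF genes apart from genes in general. The median log2 change over the 7 was 0.49, -0.04 and 0.71 in the 3 pairs, against -0.01 in each pair over all genes. These medians are the values of FGFR3, FGF1 and FGFR3 in turn. Both genes were under 1 CPM and none of these changes passed, so the medians show no shift of the FGF genes.

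**Figure D1:**
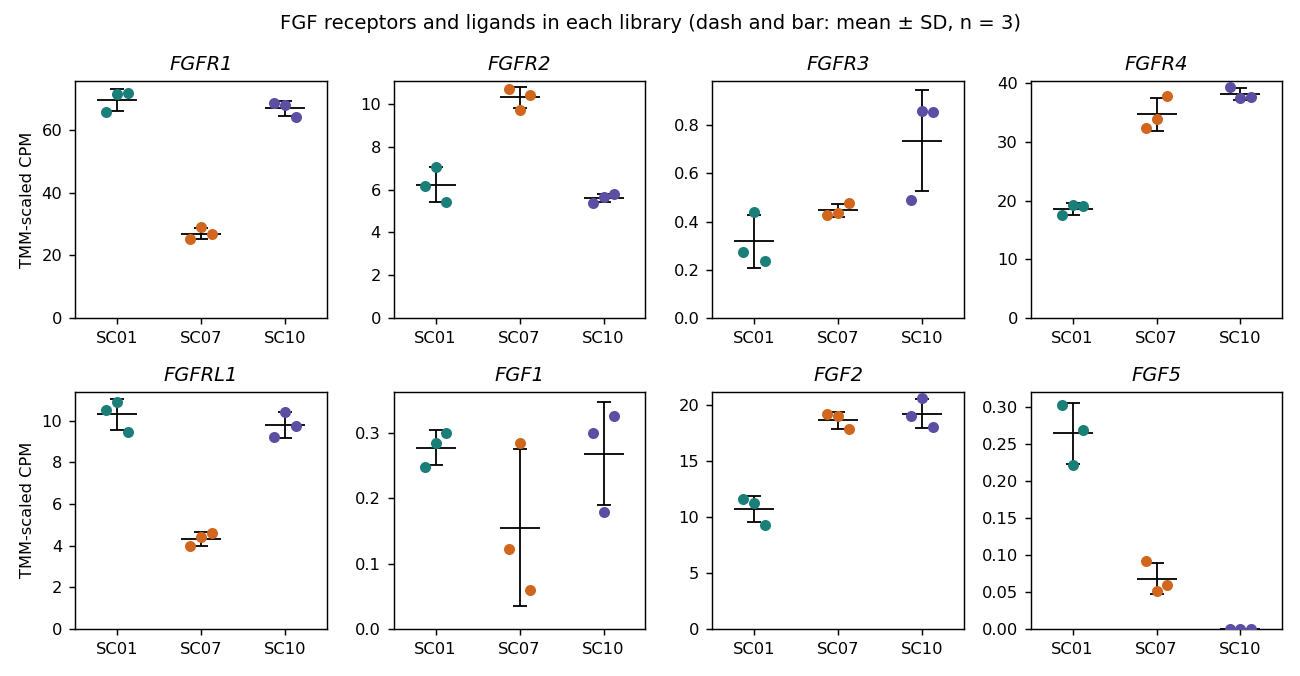
Level of each of the 8 genes in every library, in TMM-scaled CPM on a linear axis that starts at 0 (each panel has its own scale), with points for libraries, and the dash and bar giving the mean ± SD of 3 libraries per subclone. FGFR1 and FGFRL1 dip in SC07, FGFR2 peaks there, FGFR4 and FGF2 step up from SC01 to the other two subclones, and FGF5 has no count in SC10.

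Among the members, promoter sequence was looked at for those whose level stepped between subclones, to show what lies at their starts. A window around each start, most of it before the start, was taken from RefSeq on GRCh38.p14. Only bases before the start and outside annotated exons are shown. Capitals mark the GC box, GGGCGG on either strand, the site that SP-family factors bind. No FGFR1 window was used, and that of FGFRL1 lies within its annotated exons. The stretches are chr4:122826581-122826707 (plus strand) for FGF2, chr5:177086665-177086885 (plus strand) for FGFR4 and chr10:121598459-121598694 (minus strand) for FGFR2.
FGF2: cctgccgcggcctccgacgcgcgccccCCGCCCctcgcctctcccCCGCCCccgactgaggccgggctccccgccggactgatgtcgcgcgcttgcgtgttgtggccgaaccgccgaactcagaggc
FGFR4: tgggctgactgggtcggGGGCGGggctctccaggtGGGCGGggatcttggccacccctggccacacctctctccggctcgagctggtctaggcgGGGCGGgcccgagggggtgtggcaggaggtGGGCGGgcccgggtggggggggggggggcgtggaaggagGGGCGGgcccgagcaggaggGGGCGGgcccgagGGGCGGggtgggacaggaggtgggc
FGFR2: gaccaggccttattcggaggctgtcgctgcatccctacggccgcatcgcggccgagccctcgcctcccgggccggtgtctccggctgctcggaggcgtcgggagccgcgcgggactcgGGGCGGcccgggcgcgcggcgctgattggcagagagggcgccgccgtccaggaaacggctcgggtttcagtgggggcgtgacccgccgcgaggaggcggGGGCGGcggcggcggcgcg

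All 3 windows were rich in G and C, at 74.7% for FGF2, 78.7% for FGFR4 and 79.3% for FGFR2 over the 300 bases of the full window. Over that window FGFR4 held 7 GC boxes, FGFR2 held 5 and FGF2 held 3. The full window includes annotated exon bases both before and past the start, so the counts of FGFR2 and FGF2 exceed the 2 boxes shown for each. A GC box occurred in 45% of 35116 RefSeq promoter windows of that length, at least 3 in 15.8%, at least 5 in 5.14% and at least 7 in 1.5%. The other motifs searched on both strands were the E-boxes CACGTG and CATGTG (the latter the core that the pigment-cell factor MITF favours), the TATA box TATAAA and the AP-1 site TGANTCA. None of these was found in the 3 windows. They occur in 7.26%, 11.1%, 11.5% and 7.71% of all windows. FGFR4 has 2 listed windows and FGFR2 has 5, of which 1 each was read. These letters describe the sequence only and were not tied to the levels.

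FGFR1 is a main receptor of FGF2 in cells of mesenchymal and neural origin. The gene, ENSG00000077782, lies on the minus strand at chr8:38400215-38468834 of GRCh38. Its level was 65.6, 71.6 and 71.9 CPM in the SC01 libraries, 25.4, 29 and 26.7 CPM in SC07, and 68.7, 67.9 and 64.1 CPM in SC10. The SC07 libraries lay below all others with no overlap, and the SC01 and SC10 libraries were interleaved. Mean levels in SC01, SC07 and SC10 were 69.7 ± 3.5, 27.0 ± 1.8 and 66.9 ± 2.4 CPM (SD, n = 3). FGFR1 fell by 1.36 ± 0.057 on the log2 scale (SE) in SC07 against SC01, a 2.57-fold lower level (edgeR, adjusted p = 7.48e-18). It was higher in SC10 than in SC07 by 1.31 ± 0.057 (adjusted p = 8.39e-17). The log2 change in SC10 against SC01 was -0.06 ± 0.054 and did not pass (adjusted p = 0.351). With library totals in place of TMM scaling, the same change was -0.17 and passed (adjusted p = 0.00703).

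FGFRL1 binds FGFs and heparan sulfate but has no tyrosine kinase domain, and is described as a decoy or modulator of the other receptors. It lies on the plus strand at chr4:1009936-1026897. Its libraries held 10.5, 10.9 and 9.46 CPM in SC01, 3.96, 4.43 and 4.60 CPM in SC07, and 9.21, 10.4 and 9.72 CPM in SC10. Again the 3 SC07 libraries lay below the 6 others. FGFRL1 was 2.37-fold lower in SC07 than in SC01 (log2 change -1.24 ± 0.10, adjusted p = 3.77e-11, edgeR). It was 2.26-fold higher in SC10 than in SC07 (log2 change 1.17 ± 0.10, adjusted p = 3.50e-10), and did not pass between SC10 and SC01 (log2 change -0.07 ± 0.096, adjusted p = 0.545).

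FGFR1 and FGFRL1 therefore had nearly the same profile, although they lie on different chromosomes. Their log2 levels, each centred on its own mean, differed by a root mean square of 0.13 over the 9 libraries. Among 13590 protein-coding genes compared with FGFR1, FGFRL1 ranked 12th nearest, and FGFR1 ranked 18th nearest to FGFRL1. The median gene was 0.68 from FGFR1 and 0.59 from FGFRL1. These distances rest on 9 libraries of 3 clones, so any gene low in SC07 alone by a like amount comes out near.

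FGFR2 is best known as a receptor of epithelial cells, with splice forms that bind different ligands. It lies on the minus strand at chr10:121478334-121598458. Its libraries held 6.18, 7.05 and 5.42 CPM in SC01, 10.7, 9.72 and 10.4 CPM in SC07, and 5.39, 5.64 and 5.79 CPM in SC10. The SC07 libraries lay above all others, the reverse of FGFR1. FGFR2 was 1.65-fold higher in SC07 than in SC01 (log2 change 0.73 ± 0.10, adjusted p = 8.93e-07, edgeR). It was 1.83-fold lower in SC10 than in SC07 (log2 change -0.87 ± 0.11, adjusted p = 9.80e-08). SC10 against SC01 gave -0.15 ± 0.11, which did not pass (adjusted p = 0.249). That change was -0.26 and passed with library totals (adjusted p = 0.0422). Against a change of at least 1.5-fold, the SC07 difference from SC01 was not called (adjusted p = 0.129).

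FGFR4 is the receptor of the hormone-like ligand FGF19 in liver and is also found in some melanomas. It lies on the plus strand at chr5:177086886-177098144. Its libraries held 17.5, 19.3 and 19.1 CPM in SC01, 32.4, 33.9 and 37.8 CPM in SC07, and 39.3, 37.5 and 37.7 CPM in SC10. The SC01 libraries lay below the 6 others, and 1 SC07 library reached into the SC10 range. FGFR4 was 1.86-fold higher in SC07 (log2 change 0.90 ± 0.066, adjusted p = 2.11e-12, edgeR) and 2.05-fold higher in SC10 (1.04 ± 0.065, adjusted p = 7.81e-14) than in SC01. SC10 against SC07 gave 0.14 ± 0.062 and did not pass (adjusted p = 0.0671). Without SC07 replicate 3 that change was 0.21 and passed (adjusted p = 0.0113), and without SC10 replicate 3 it was 0.16 and passed (adjusted p = 0.0390).

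FGFR3, a receptor known for its part in bone growth and bladder cancer, was barely present. It lies on the plus strand at chr4:1793293-1808872. It had 10, 14 and 8 counts in the SC01 libraries, 14, 17 and 16 in SC07 and 18, 29 and 29 in SC10. These gave means of 0.319 ± 0.11, 0.447 ± 0.027 and 0.736 ± 0.21 CPM (SD, n = 3). FGFR3 was 2.30-fold higher in SC10 than in SC01 (log2 change 1.20 ± 0.38, adjusted p = 0.00672, edgeR), and every SC10 library exceeded every SC01 library. The change was not called against 1.5-fold (adjusted p = 0.0719). SC07 against SC01 gave 0.49 ± 0.40 (adjusted p = 0.296), and SC10 against SC07 gave 0.71 ± 0.36 with libraries that did not overlap (adjusted p = 0.105). The latter passed without SC10 replicate 1 (0.94, adjusted p = 0.0474). In the test of the 3 subclones together, FGFR3 no longer passed without SC01 replicate 1 (adjusted p = 0.0523), SC01 replicate 3 (0.0608), SC10 replicate 2 (0.0813) or SC10 replicate 3 (0.0792).

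**Figure D2:**
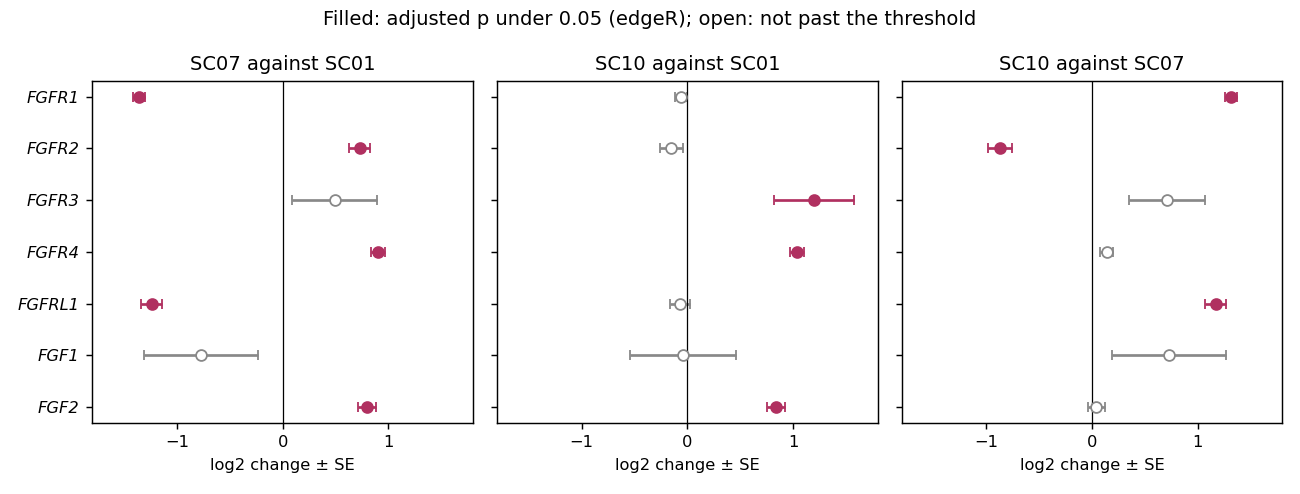
Log2 change of the 7 tested genes in each pair of subclones, with bars of 1 SE from the edgeR fit, filled where the adjusted p is under 0.05. FGFR1 and FGFRL1 lie left of 0 in SC07 against SC01 and right of 0 in SC10 against SC07, FGFR2 does the reverse, and FGFR4 and FGF2 lie right of 0 in both comparisons with SC01.

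The make-up of the receptor pool was compared per length of exon, as RPKM (CPM divided by the exon length in kb), a description added after the gene values were seen. In SC01, FGFR1 stood at 5.04 ± 0.25 RPKM and FGFR4 at 3.86 ± 0.20 RPKM (SD, n = 3). In SC07 the order was turned, with FGFR4 at 7.18 ± 0.58 and FGFR1 at 1.95 ± 0.13 RPKM. SC10 had 7.90 ± 0.21 RPKM of FGFR4 and kept FGFR1 at 4.83 ± 0.18 RPKM. FGFR2 followed at 0.82 ± 0.11, 1.36 ± 0.065 and 0.740 ± 0.026 RPKM, and FGFR3 was at most 0.152 ± 0.044 RPKM. Each of these gaps between neighbours in the order exceeded their SDs.

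As shares of the summed RPKM of the 4 kinase receptors, FGFR1 made up 51.5% ± 0.82 in SC01, 18.5% ± 1.4 in SC07 and 35.5% ± 0.73 in SC10 (SD, n = 3). FGFR4 made up 39.5% ± 0.40, 67.8% ± 1.6 and 58.0% ± 0.73. FGFR2 made up 8.39% ± 1.0, 12.8% ± 1.0 and 5.43% ± 0.30. No library of one subclone overlapped those of another in the FGFR1 or the FGFR4 share. The summed level of the 4 receptors was 9.78 ± 0.48 RPKM in SC01, 10.6 ± 0.60 in SC07 and 13.6 ± 0.27 in SC10. The sums of SC01 and SC07 lay nearer to each other than to that of SC10, while their compositions differed most.

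The FGFR1-to-FGFR4 RPKM ratio was 1.31, 1.29 and 1.31 in the SC01 libraries, 0.274, 0.298 and 0.246 in SC07, and 0.610, 0.631 and 0.594 in SC10. Values between genes depend on the length used. GENCODE 29 gives FGFR1 13842 exon bases over all isoforms but 6054 in its longest coding transcript, and with the longest coding transcripts the mean ratios were 1.93, 0.403 and 0.904. The order of the subclones and the side of 1 on which each lay were the same with both lengths. The isoforms in use were not measured.

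**Figure D3:**
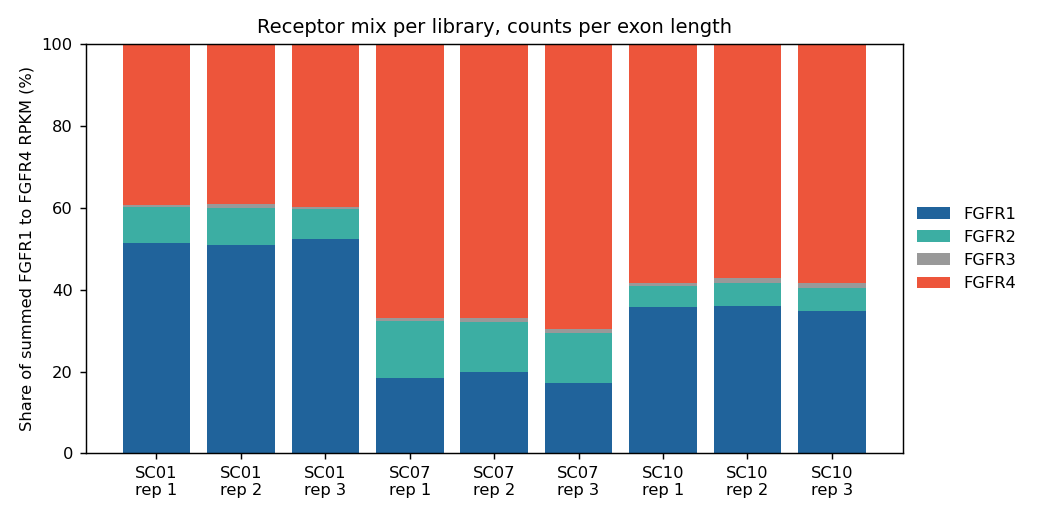
Share of FGFR1, FGFR2, FGFR3 and FGFR4 in their summed RPKM for each of the 9 libraries, as stacked bars from 0 to 100% with exon-union lengths. FGFR1 takes 50.8% to 52.4% of the SC01 bars, 17.2% to 20% of the SC07 bars and 34.7% to 36.1% of the SC10 bars, and FGFR4 is the larger share in all SC07 and SC10 libraries.

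FGF2, basic FGF, leaves cells without a classical signal peptide and binds FGFR1 and several other receptors. It lies on the plus strand at chr4:122826708-122898236. Its libraries held 11.6, 11.2 and 9.31 CPM in SC01, 19.2, 19.0 and 17.8 CPM in SC07, and 19.0, 20.6 and 18.0 CPM in SC10. The SC01 libraries lay below the 6 others, and SC07 and SC10 overlapped. FGF2 was 1.74-fold higher in SC07 (log2 change 0.80 ± 0.084, adjusted p = 2.76e-09, edgeR) and 1.79-fold higher in SC10 (0.84 ± 0.084, adjusted p = 9.47e-10) than in SC01. SC10 against SC07 gave 0.04 ± 0.079 (adjusted p = 0.715).

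FGF2 shares 11.9% of its exon bases with NUDT6, which is read from the opposite strand and is known as the FGF2 antisense gene. NUDT6 stood at 5.34 ± 0.50, 7.32 ± 0.46 and 6.42 ± 0.46 CPM in SC01, SC07 and SC10 (SD, n = 3). NUDT6 was higher than in SC01 by 0.45 in SC07 (adjusted p = 0.000940) and by 0.26 in SC10 (adjusted p = 0.0452) on the log2 scale. Whether the counting used strand is not given in the sources used here, so reads from the shared bases of FGF2 and NUDT6 cannot be told apart. FGFR1 shares 0.997% of its exon bases with LETM2 and 1.13% with the antisense gene AC087623.1, both on the other strand. LETM2 was lower in SC07 than in SC01 by -0.70 on the log2 scale (adjusted p = 0.00103), and AC087623.1 did not pass (log2 change -0.94, adjusted p = 0.163).

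FGF1, acidic FGF, binds all the FGF receptors. It lies on the minus strand at chr5:142592178-142698070 and had 9, 9 and 10 counts in the SC01 libraries, 4, 11 and 2 in SC07 and 11, 6 and 11 in SC10. FGF1 reached the filter's level of 0.289 CPM in 2 SC01, 0 SC07 and 2 SC10 libraries. It was thus tested only through the subclones where it was higher, and its changes against SC07 carry that limit. No pair passed, with log2 changes of -0.77 ± 0.54 (edgeR, adjusted p = 0.224), -0.04 ± 0.50 (0.946) and 0.73 ± 0.54 (0.285). The SC07 libraries spread from 2 to 11 counts, and without SC07 replicate 2 the adjusted p of the test of the 3 subclones together was 0.0826 in place of 0.343.

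FGF5, known for its part in ending hair growth and for its presence in some tumours, lies on the plus strand at chr4:80266599-80336680. It had 11, 7 and 9 counts in the SC01 libraries, 3, 2 and 2 in SC07 and 0 in each SC10 library. The summed counts of 27 in SC01 and 7 in SC07 give a ratio of 4.0 (exact 95% interval 1.70 to 10.9, counting error only). Set against 3 counts over the subclone, the 0 of SC10 gives ratios of 9.25 for SC01 and 2.31 for SC07. With the counting error of the other subclone included (exact 95% interval), FGF5 was at least 7.02-fold lower in SC10 than in SC01 and at least 1.43-fold lower than in SC07. FGF5 reached the filter's level of 0.289 CPM in 1 library, too few to be kept, so it was not tested with the others. Fitted without the filter, it passed in SC10 against SC01 (adjusted p = 2.18e-05) and against SC07 (0.0357) but not in SC07 against SC01 (0.0552). FGF5 shares 2.27% of its exon bases with CFAP299, on the same strand, which had at most 0.00998 CPM on average in a subclone.

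FGFR4 and FGF2 also had like profiles, with a root mean square difference of 0.16, which placed FGF2 at rank 398 of 13590 genes from FGFR4 and FGFR4 at rank 470 from FGF2. FGFR1 and FGFR2 were far apart, at 0.99. The genes nearest to FGFR1 were AP3B2 (0.076), STON2 (0.079), MAPK8IP2 (0.093) and TNIK (0.098). AP3B2 ran at 3.68, 1.02 and 3.26 CPM and TNIK at 28.4, 12.1 and 30 CPM in SC01, SC07 and SC10. Nearest to FGFRL1 were PPARG (0.081), TGFBR1 (0.087), MRAS (0.099) and LGALS1 (0.10). TGFBR1, a TGF-beta receptor, ran at 152, 69.4 and 149 CPM. Nearest to FGFR2 were CSGALNACT1 (0.086), PHLDA1 (0.093), BRINP3 (0.10, at most 0.386 CPM) and SLC2A3 (0.10). Nearest to FGFR4 were MFSD10 (0.050), SDHA (0.057), TBC1D1 (0.061) and ZDHHC12 (0.061), and nearest to FGF2 were MGAT4A (0.067), ZNF382 (0.069), OXR1 (0.070) and ZNF275 (0.074). Low genes are drawn together on this scale, since 0.5 was added to each CPM.

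The genes around the members were examined within 1 Mb of each start. Around FGF2, 7 of 9 tested genes were higher in SC07 than in SC01 and 8 of 9 were higher in SC10, with 0 lower in either, beside 31.5% and 33.5% of all genes higher. They included SPRY1, a feedback inhibitor of FGF signalling, with log2 changes of 1.56 in SC07 and 1.88 in SC10. NUDT6 is also among the 9, with log2 changes of 0.45 and 0.26. Reads from the exon bases it shares with FGF2 cannot be told apart. The 9 genes had a median log2 change of 0.49 and 0.75, against 0.80 and 0.84 for FGF2. All 9 had a positive log2 change in both, with CETN4P not passing in either and AC021205.3 not in SC07. In SC10 against SC07, 1 of the 9 was called, SPRY1, at 0.32 on the log2 scale, beside 47.9% of all genes called.

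Around FGFR1, 9 of 25 tested genes were higher and 5 lower in SC07 than in SC01, with a median log2 change of 0. FGFR1 itself changed by -1.36. In SC10 against SC01, 17 of 25 were higher and 0 lower, with a median of 0.59, while FGFR1 gave -0.06. Apart from PLEKHA2, the largest change was that of ZNF703, a transcriptional corepressor gene (3.07 in SC07 and 3.73 in SC10, at most 409 CPM). PLEKHA2 is counted as higher in SC10 than in SC01 and in SC07. It cleared the filter only through SC10, where it was high (mean 8.87 CPM), so its contrasts are not read on their own. FGFR1 lay below the median of the genes near it in both comparisons with SC01. In SC10 against SC07, 17 of 25 were higher and 0 lower, with a median of 0.45, and FGFR1 was higher too, at 1.31. FGFRL1, lower in SC07 than in SC01, had 19 of 35 neighbours higher and 6 lower in that pair. FGFR3 lies within the same 1 Mb, so it and FGFRL1 share neighbours. FGFR4 had 16 of 40 neighbours higher and 5 lower in SC07, and 12 higher and 12 lower in SC10. FGFR2 had 2 higher and 2 lower of 9 in SC07, and 5 higher and 2 lower in SC10. Of all genes, 31.5% were higher and 30.5% lower in SC07 against SC01, and 33.5% and 32.4% in SC10 against SC01. In SC10 against SC07, 24.8% were higher and 23.0% lower. The counts around FGFR4 in SC10 are near these shares.

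**Figure D4:**
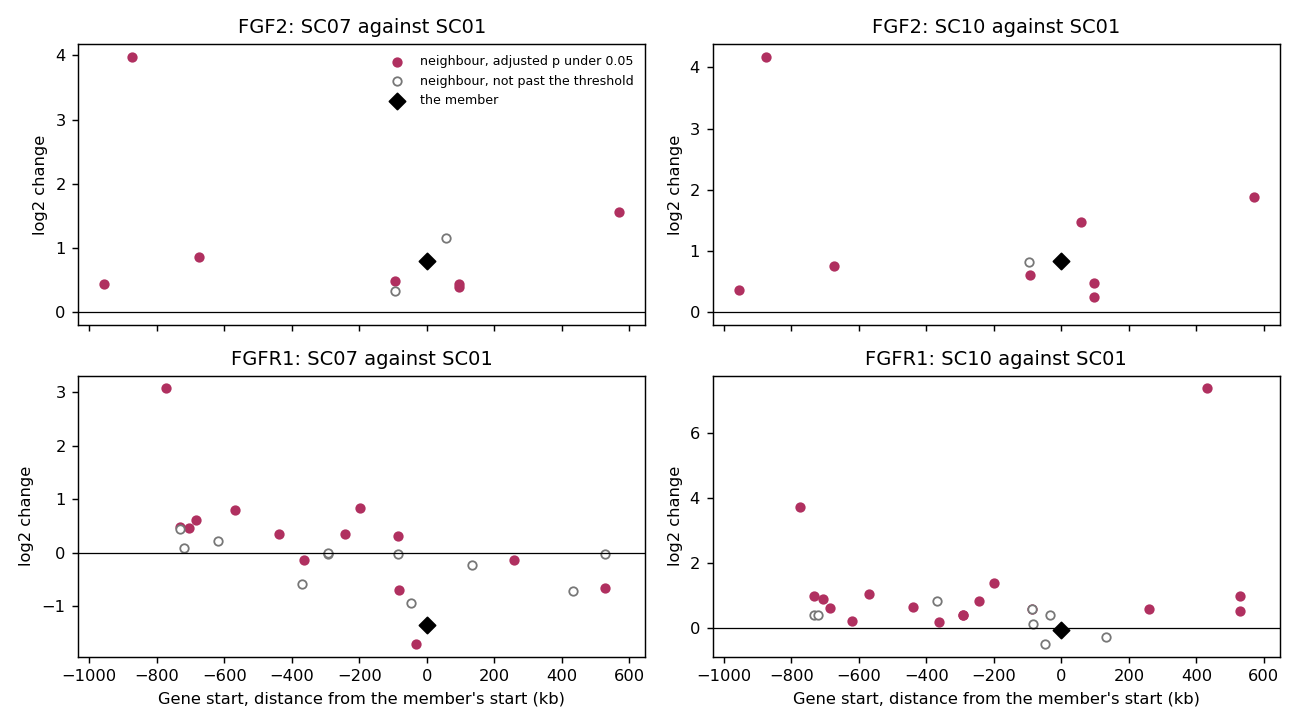
Log2 change of tested genes that start within 1 Mb of FGF2 (top) and FGFR1 (bottom), against the distance of their start from that of the member in kb, for SC07 and SC10 against SC01. Filled points passed at an adjusted p under 0.05 and the diamond is the member, and both were chosen for display after their values were seen. All points around FGF2 lie above 0, whereas FGFR1 lies below most of its neighbours. PLEKHA2, near FGFR1, is plotted but cleared the filter only through SC10, where it was high.

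The other genes of the pathway were taken from lists of 96, of which 72 were tested. In SC07 against SC01, 24 were higher and 30 lower, in SC10 against SC01, 27 and 32, and in SC10 against SC07, 20 and 18. The shares called were 75.0%, 81.9% and 52.8%, beside 62.0%, 65.9% and 47.9% of all genes. The median log2 changes were -0.12, -0.01 and 0.05. The totals, shares and medians include FGF19, GPC5 and HS3ST2, which cleared the filter only through SC07 and SC10, where they were high. They also include SDC2 and HS6ST2, which cleared it only through SC01, where they were high. HS3ST3A1, likewise high in SC01, cleared it only with the SC01 libraries. SDC2, HS6ST2 and HS3ST3A1 are counted as lower in SC07 and SC10 than in SC01.

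Of the 15 other secreted ligands, 1 cleared the filter on low counts and 5 had no count in any library. FGF19, the ligand that FGFR4 binds with the co-receptor beta-klotho, had 3, 3 and 2 counts in the SC01 libraries, 19, 26 and 10 in SC07 and 37, 42 and 51 in SC10. The libraries of the 3 subclones did not overlap. FGF19 cleared the filter only through SC07 and SC10, where it was high, so it is given as counts and its own test is not read. FGF19 is still counted as tested, and as higher in each pair, in the pathway totals above, which carry that limit. KLB, the gene of beta-klotho, had 8, 5 and 6 counts in SC01, SC07 and SC10, and KL had 0, both looked up after the values of FGF19 were seen. The FGF homologous factors stay inside the cell and bind sodium channels. In this list 1 of 4 was higher in SC07 and 3 of 4 were higher and 1 lower in SC10 than in SC01. FGF13 ran at 30, 29.5 and 49.8 CPM, and FGF14 at 12.5, 11.2 and 7.05 CPM in SC01, SC07 and SC10. FGF14 shares 31.6% of its exon bases with ITGBL1 and FGF11 shares 75.0% with AC113189.4, so the counts of FGF14 and FGF11 (0.470, 1.22 and 1.43 CPM) are uncertain.

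Co-receptors and binding partners held some of the largest changes against SC01. Of 7 tested, 2 were higher and 3 lower in SC07, and 2 higher and 4 lower in SC10 than in SC01. NCAM1 and CDH2 (N-cadherin) are adhesion molecules reported to bind FGFR1 and to hold it at the cell surface. NCAM1 ran at 22.4 ± 1.2, 0.416 ± 0.11 and 0.874 ± 0.30 CPM in SC01, SC07 and SC10. CDH2 stood at 22.6 ± 1.7, 0.607 ± 0.28 and 0.312 ± 0.22 CPM, and FLRT2, which also binds FGF receptors, at 7.69 ± 0.44, 0.531 ± 0.24 and 0.485 ± 0.13 CPM (SD, n = 3). All 3 were lower in SC07 and in SC10 than in SC01 without overlap of libraries, at 14.4-fold or more (edgeR, adjusted p at most 6.96e-13). SC10, whose FGFR1 did not pass the test against SC01, was low in NCAM1, CDH2 and FLRT2 as SC07 was. The 2 higher genes, named after their values were seen, were FGFBP2 and FGFBP3. FGFBP2 stood at 4.25 ± 0.58, 27.9 ± 0.32 and 19.7 ± 1.5 CPM in SC01, SC07 and SC10, with 13.3% of its exon bases shared with PROM1. FGFBP3 stood at 0.814 ± 0.09, 2.24 ± 0.24 and 2.73 ± 0.056 CPM.

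Heparan sulfate proteoglycans carry the chains that FGFs and receptors bind. Of 12, all tested, 5 were higher and 6 lower in SC07, and 5 higher and 7 lower in SC10 than in SC01. GPC5 is among those counted as higher, but cleared the filter only through SC07 and SC10, where it was high. SDC2 is among those counted as lower, but cleared the filter only through SC01, where it was high. GPC3 was lower in both, at 13.4 ± 0.97, 0.606 ± 0.12 and 0.548 ± 0.091 CPM in SC01, SC07 and SC10. HSPG2 (perlecan) fell from 287 ± 4.1 to 76.4 ± 4.8 and 58.4 ± 13 CPM, with 11.7% of its exon bases shared with LDLRAD2. GPC1 rose from 17.3 ± 0.45 to 26.6 ± 0.96 and 37.2 ± 1.4 CPM (SD, n = 3). Of 16 tested enzymes that build or trim the chains, 2 were higher and 10 lower in SC07, and 4 higher and 6 lower in SC10 than in SC01. HS3ST2, a 3-O-sulfotransferase, rose from 0.0882 CPM in SC01 (9 counts in all) to 4.41 ± 0.85 in SC07 and 5.52 ± 0.86 CPM in SC10. HS3ST2 is among the enzymes counted as higher, but cleared the filter only through SC07 and SC10, where it was high. HS6ST2 and HS3ST3A1 are among those counted as lower, but cleared the filter only with the SC01 libraries, where they were high. HPSE (heparanase, which cuts the chains) ran at 2.33 ± 0.53, 0.511 ± 0.060 and 5.38 ± 0.39 CPM, and differed in each pair (adjusted p at most 2.71e-07). SULF1, which removes 6-O-sulfates, was at 2.20 ± 0.090, 2.83 ± 0.057 and 0.405 ± 0.22 CPM, lower in SC10 than in both others (adjusted p at most 3.73e-09). SULF2, which removes the same sulfates and was named after its values were seen, was more abundant and went the other way, at 15.2 ± 0.36, 13.2 ± 1.1 and 25.9 ± 1.8 CPM. It was higher in SC10 than in SC01 (log2 change 0.77, adjusted p = 5.66e-10) and than in SC07 (0.98, adjusted p = 1.98e-11, edgeR).

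Genes of ligand release and intracellular partners gave 2 higher and 1 lower of 4 in SC07, and 3 higher and 1 lower in SC10 than in SC01. TEC, a kinase that takes part in FGF2 export, was higher in both, at 1.72, 5.07 and 5.2 CPM in SC01, SC07 and SC10. S100A13, a partner of FGF1 export, was lower in both, at 47.7, 36.6 and 35.2 CPM, with 24.2% of its exon bases shared with AL162258.1. The receptor adaptors split, with 4 higher and 4 lower of 13 in SC07 and 4 higher and 6 lower in SC10 than in SC01. GAB2, a docking protein, stood at 137, 191 and 226 CPM, and PTPN11, the phosphatase SHP2, at 306, 233 and 182 CPM. CBL, a ubiquitin ligase for receptors, stood at 43.7, 68.6 and 94.0 CPM, and 4.34% of its exon bases are shared with MCAM. GAB2, PTPN11 and CBL each differed in all 3 pairs of subclones (adjusted p at most 0.0143, edgeR).

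Feedback and response genes gave 7 higher and 4 lower of 12 in SC07, and 5 higher and 4 lower in SC10 than in SC01. SPRY1 rose from 23.9 ± 0.95 CPM in SC01 to 70.6 ± 2.3 in SC07 and 87.9 ± 4.0 in SC10 (SD, n = 3). ETV4 rose from 176 ± 4.0 to 318 ± 12 and 248 ± 7.8 CPM, so that SC07 was highest. SPRED1, an inhibitor of RAS signalling, fell from 75.8 ± 1.4 to 52.0 ± 0.66 and 38.5 ± 2.4 CPM. DUSP6, the ERK phosphatase, chosen for naming after its values were seen, ran at 45.4 ± 2.6, 64.6 ± 0.43 and 46.6 ± 0.98 CPM, highest in SC07. DUSP6 shares 40.5% of its exon bases with the antisense gene AC024909.2, so its counts are uncertain. The receptor splicing regulators gave 0 higher and 2 lower of 3 in SC07 and 0 higher and 3 lower in SC10 than in SC01. ESRP1, which favours the epithelial splice form of FGFR2, stood at 30.5, 22.9 and 23.9 CPM, RBFOX2 at 110, 66.0 and 73.7 CPM and PTBP1 at 412, 387 and 341 CPM. Splice forms of FGFR2 were not measured by gene counts.

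**Figure D5:**
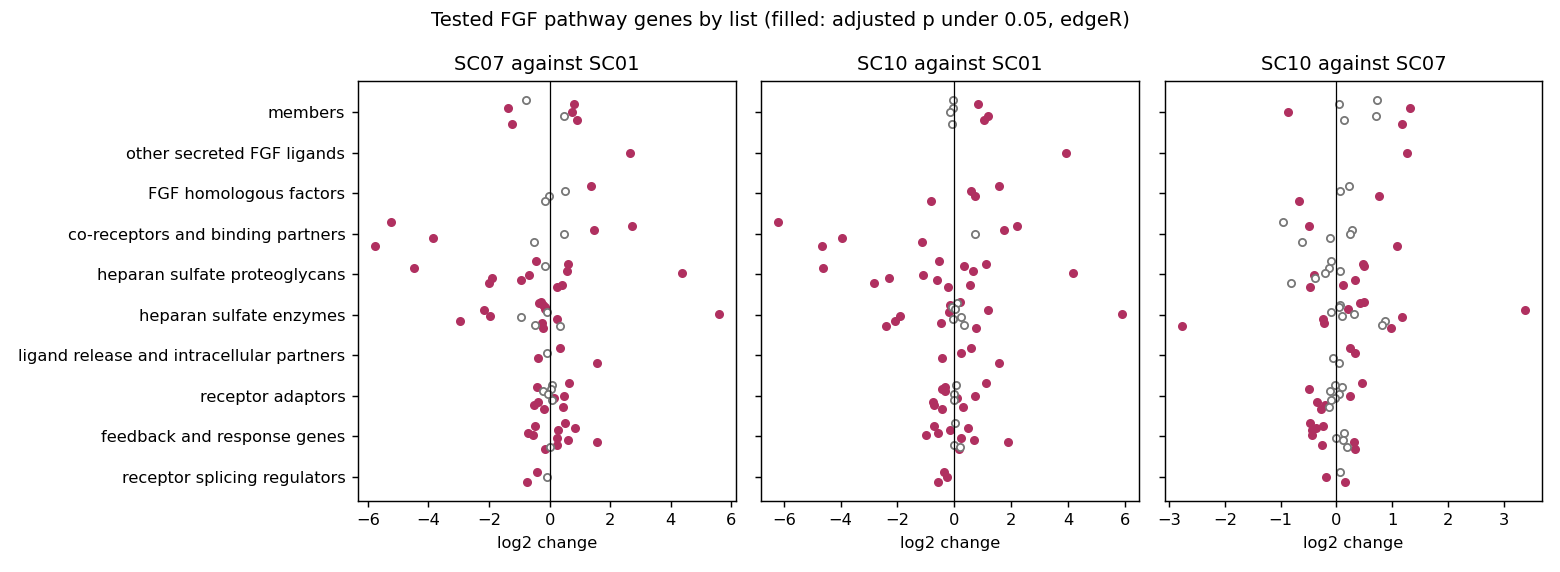
Log2 change of each tested gene in the 10 lists, one row per list with the FGF receptors and ligands on top, in each pair of subclones, filled where the adjusted p is under 0.05 (edgeR). The co-receptor and proteoglycan rows reach far from 0 in both comparisons with SC01, to -6.19 for CDH2 in SC10 against SC01. The receptors and ligands stay between -1.36 and 1.31. HS3ST2 (5.90 in SC10 against SC01), GPC5 and FGF19 cleared the filter only through SC07 and SC10, where they were high. HS3ST2, GPC5 and FGF19 are plotted and counted with their lists, but their contrasts are not read on their own. The same holds for SDC2, HS6ST2 and HS3ST3A1, which cleared the filter only with the SC01 libraries, where they were high.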

How the data were processed

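The deposited table holds raw read counts for 60675 Ensembl IDs in each of 9 libraries. The submitters' processing notes name HISAT2 and featureCounts as tools and GRCh38 as build. Versions, annotation release, strand setting and handling of multiply mapped reads were not given in the sources used here, and they can change counts of overlapping genes and near-identical copies. Names, positions and lengths came from GENCODE 29, which held 57055 of the IDs, and promoters from RefSeq. Of the genes, 18009 passed edgeR's filterByExpr. Counts were scaled by TMM, and 1 model of the 9 libraries was fitted in edgeR 4.0.16 under R 4.3.3 (quasi-likelihood, robust, common biological coefficient of variation 0.0523), with Benjamini-Hochberg adjusted p under 0.05 over all genes tested. SEs were derived from the log2 change and its F statistic, and are too small where a subclone holds few counts. Intervals and floors cover counting error only.

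The members, gene lists and tests were chosen with earlier results of these data known. Beside the members, named genes were those whose exons overlap a member, up to 3 per list with the largest change past the threshold, without overlap of libraries and with at least 1 CPM in the higher subclone, the 4 protein-coding genes most like each member with a mean of at least 1 CPM, and up to 2 neighbours per member. Some genes taken by this rule are left out of the text. Likeness is the root mean square difference of centred log2(CPM + 0.5). Exceptions are marked as chosen after their values were seen, as were the promoter motifs and the receptor shares. Alternatives were other scalings and filters, DESeq2 1.42.0, limma-voom (limma 3.58.1), a test against a 1.5-fold change, each pair fitted alone, a replicate block and each library left out.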

Additional observations from a re-analysis of the deposited data

How the results depend on the processing

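Scaling by library totals moved the median of all genes by -0.12 in SC07 and SC10 against SC01, and 5 members were then called in SC10 against SC01 in place of 3. The test against a 1.5-fold change called 20, 29 and 4 of the other pathway genes in SC07 against SC01, SC10 against SC01 and SC10 against SC07, in place of 54, 59 and 38, and 3703, 4192 and 1444 of all genes in place of 11162, 11864 and 8620, since it asks for a larger change. With the longest coding transcript as length, chosen after seeing the data, the FGFR1-to-FGFR4 ratio was 1.93, 0.403 and 0.904 in place of 1.30, 0.273 and 0.612. FGFR4 in SC10 against SC07 passed with the 1 CPM filter (0.15, adjusted p = 0.0453). Changes that passed no test turned sign: FGF1 in SC10 against SC01, at 0.02 without SC01 replicate 3 and 0.18 without SC10 replicate 2, and FGF2 in SC10 against SC07, at -0.01 without SC10 replicate 2. Over all libraries left out in turn they ran from -0.19 to 0.18 and from -0.01 to 0.09. The cause was not tested.

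Leaving out each library in turn gave 5 to 5, 3 to 3 and 3 to 4 members called in the 3 pairs, 5 to 6 among the 3 subclones, 51 to 56, 55 to 59 and 37 to 40 pathway genes, 10454 to 11793, 11299 to 12026 and 7627 to 8548 of all genes, and ratios of 1.30 to 1.31, 0.260 to 0.286 and 0.602 to 0.620. Libraries with the same number did not deviate together (correlations of -0.02 to 0.06), so the numbers do not pair them. With replicate number as a block, 5, 3 and 3 members and 54, 59 and 39 pathway genes were called. The members under 1 CPM are limited by depth: 3 counts equal up to 0.0993 CPM.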
